A study of Homo sapiens with 2 samples.

Results

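Mediator, TFIID and the general transcription factors were examined as 1 module of 77 protein-coding genes out of 27685 genes listed in the libraries. Members were taken by symbol: MED or TAF with a number and at most 1 letter, names starting with GTF2, and CCNC, CDK8, CDK19, TBP, ERCC2, ERCC3, CDK7, CCNH and MNAT1. MED12L, GTF2I with its copies, and pseudogenes were left out. The data were 1 RNA-seq library of H1299 cells, derived from a human lung carcinoma of the non-small cell kind, given 5 mM metformin, and 1 library of untreated H1299 cells as control. Metformin, a biguanide, is prescribed to lower blood glucose. Both were cell cultures at passages 10 to 15, and the time of exposure is not given in the labels. With 1 library per condition no difference has a replicate check and no test was run. The 95% intervals given with ratios cover the counting of reads only, and the read pairs behind them were inferred from abundance and transcript length.

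RNA polymerase II starts transcription from a promoter together with the general transcription factors TFIIA, TFIIB, TFIID, TFIIE, TFIIF and TFIIH. TFIID carries the TATA-binding protein TBP and a set of TBP-associated factors, the TAFs, several of which pair through histone folds. Mediator bridges activators and the polymerase through its head, middle and tail, and a detachable kinase module with CDK8 or CDK19 and cyclin C regulates it. TFIIH opens the promoter with its helicases and phosphorylates the polymerase through CDK7.

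Abundances were in TPM, a level per transcript length relative to all transcripts of a library. The metformin library held 6.40 Gb of aligned bases, about 31.7 Mpairs (1000000 read pairs each), and the control library 5.80 Gb, about 28.7 Mpairs. The epithelial keratins KRT8 and KRT18 and vimentin were high, at 521, 954 and 4962 TPM in metformin and 269, 553 and 4378 TPM in control. EPCAM, an epithelial marker, stood at 0.253 TPM in metformin and 0.0478 TPM in control. Markers of blood, endothelium, fibroblasts and liver (PTPRC, PECAM1, COL1A1 and ALB) lay at or below 0.342 TPM in both libraries.

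TAF9, MED29 and GTF2A1 stood apart from the other members, each lower in metformin by more than 2-fold, and they belong to 3 different complexes. The promoter sequences of these genes are shown because each of them shares its start region with a neighbouring gene whose level is described further on. They are RefSeq windows on GRCh38 of 250 bases before to 50 bases after a start, written along the gene's strand. Capitals mark the ETS core CCGGAAG and the E-box CACGTG on either strand. TAF9 and GTF2A1 have 2 windows each in the table, and the window that holds an ETS core is printed.
TAF9, chr5:69369471-69369770, minus strand, a window listed for AK6 as well: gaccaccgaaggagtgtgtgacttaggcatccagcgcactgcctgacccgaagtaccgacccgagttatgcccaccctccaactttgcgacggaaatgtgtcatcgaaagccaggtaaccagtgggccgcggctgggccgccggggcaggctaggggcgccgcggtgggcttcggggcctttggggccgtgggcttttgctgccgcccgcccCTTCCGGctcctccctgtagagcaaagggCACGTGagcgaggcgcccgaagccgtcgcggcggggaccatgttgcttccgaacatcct
MED29, chr19:39391128-39391427, plus strand: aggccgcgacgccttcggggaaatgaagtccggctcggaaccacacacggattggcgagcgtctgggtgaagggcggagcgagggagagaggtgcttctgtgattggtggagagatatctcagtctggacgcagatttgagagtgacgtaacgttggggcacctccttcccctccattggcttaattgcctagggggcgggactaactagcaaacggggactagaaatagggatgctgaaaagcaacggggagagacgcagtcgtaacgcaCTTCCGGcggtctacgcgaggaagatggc
GTF2A1, chr14:81221341-81221640, minus strand: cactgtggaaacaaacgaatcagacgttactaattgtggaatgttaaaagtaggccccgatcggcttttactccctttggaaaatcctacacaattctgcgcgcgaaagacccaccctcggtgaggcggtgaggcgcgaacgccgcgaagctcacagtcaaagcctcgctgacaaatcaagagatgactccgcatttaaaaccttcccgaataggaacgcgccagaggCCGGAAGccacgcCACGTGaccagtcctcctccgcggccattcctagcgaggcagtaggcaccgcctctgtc

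The motifs searched on both strands were the TATA box TATAAA, the CCAAT box CCAAT, the GC box GGGCGG, the ETS core CCGGAAG, the E-box CACGTG, the CRE TGACGTCA and the NRF1 palindrome, which is GCGC, then any base, then TGCGC. None of these motifs contains another, though matches can share bases. Of the 77 members, 63 had an entry, with 78 windows of 300 bases. The ETS core was found in 27 of the 78 windows, or 34.6%, and in 12.8% of 22049 windows of all protein-coding genes. NRF1 matches were present in 20.5% of member windows and 7.32% of all protein-coding windows, and E-boxes in 16.7% and 8.31%. The TATAAA sequence occurred in 4 member windows, 5.13%, beside 9.51% of protein-coding windows. CCAAT and the GC box had about the same share in members, 34.6% and 57.7%, as in all protein-coding windows, 34.7% and 56.2%. The CRE was found in 3.85% of member windows and 2.25% of all protein-coding windows. A match is a description of the letters in the window and not a shown binding site. The MED29 window held 3 CCAAT matches and 2 GC boxes, and the printed TAF9 window held 2 GC boxes. The windows not printed held no ETS core: that of TAF9 had 1 GC box, and that of GTF2A1 had 4 GC boxes, 1 E-box and 1 NRF1 match.

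Libraries were compared on the scale of log2(TPM + 1), as the metformin value less the control value, over genes with 1 TPM or more in at least 1 library. Of the 77 members 74 were measured in this sense. By 2-fold or more, 3 of the 74 members were lower in metformin and 0 were higher. Among all 14078 measured genes 1.24% were lower and 1.51% higher by that rule, and among the 12230 protein-coding ones 0.85% were lower and 1.19% higher. The 3 members make up 4.05% of those measured, and at 1.5-fold the counts for members were the same, 3 lower and 0 higher. At 1.5-fold the share of all measured genes was 7.03% lower and 5.4% higher, and that of protein-coding ones 6.19% lower and 4.78% higher. The median over the members was -0.18 on the log2 scale, against -0.08 over all measured genes, with 54 members below 0 and 20 above. That is 73.0% of members below 0, where 59.7% of all measured genes lay below 0. The position of the members against 0 depended on the scaling. Centring on the median of genes at 10 TPM or more (-0.09) left 45 members below 0 and 29 above. The medians were then -0.09 over the members and 0.008 over all measured genes. With the trend over GC content and transcript length removed, they were -0.10 over 73 members and -0.07 over all genes. In that setting 50 members lay below 0 and 23 above. The plain TPM ratio lay between 0.8 and 1.25 for 57 of the 74 members.

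**Figure D1:**
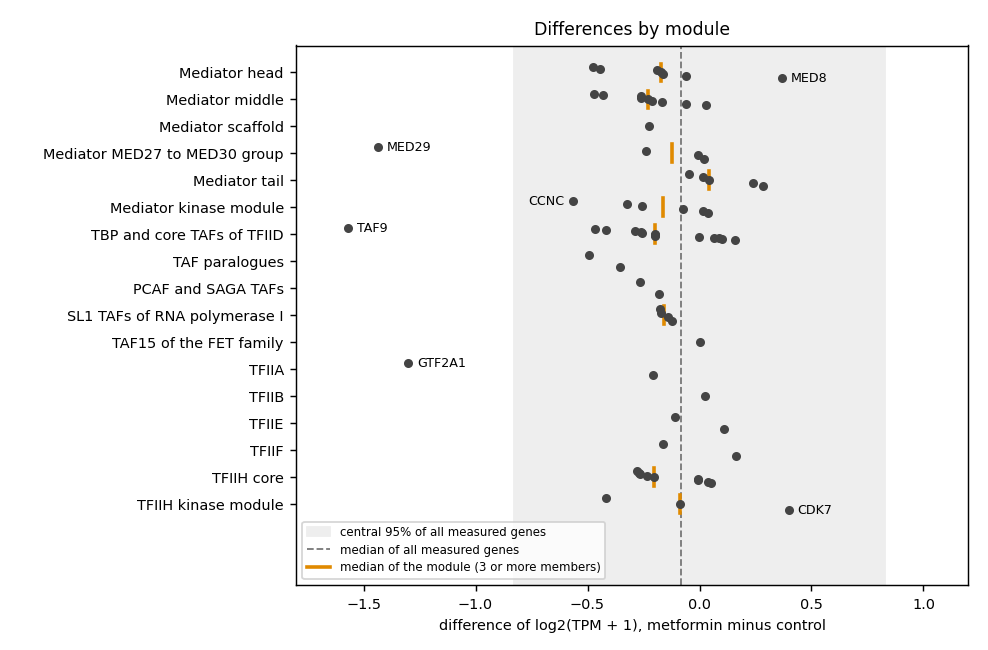
Metformin value less control value on the log2(TPM + 1) scale for the 74 measured members, 1 row per module and 1 point per gene. The grey band holds the central 95% of all measured genes, from -0.83 to 0.83, the dashed line is their median of -0.08, and orange bars are medians of modules with 3 or more members. TAF9, MED29 and GTF2A1 are the points outside the band.

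TAF9 is a TFIID subunit with a histone fold that pairs with TAF6, and it also occurs in SAGA, a histone acetyltransferase complex. TAF9 (NCBI gene 6880, chromosome 5 at 68660570 to 68665840 of hg19, minus strand) was listed at 99.5 TPM in metformin and 297 TPM in control, or 0.335 of control (0.316 to 0.355). It was the most abundant of all members in control and the eighth in metformin, and 25 of the 14078 measured genes had a lower difference. TAF9 overlaps AK6, an adenylate kinase gene on the same strand that is listed with both TAF9 promoter windows. The 2 genes have the same listed start. Over all transcripts annotated for TAF9 in GENCODE, 508 of 7566 exon bases also belong to AK6. These exon bases exceed the span listed for TAF9, so the share among the counted bases can differ. The canonical TAF9 transcript has 1163 bases, and the shared part of that transcript was not tested. AK6 had 79.0 TPM in metformin and 75.3 TPM in control, a ratio of 1.05 (0.979 to 1.12). Reads of the shared bases can be assigned to either gene, and the summed locus stood at 179 TPM in metformin and 373 TPM in control, a ratio of 0.479. On the log2(TPM + 1) scale this sum also lay past 2-fold, at -1.06. RAD17, a checkpoint gene on the other strand whose start lies 716 bases from that of TAF9, had 32.8 TPM in metformin and 38.5 TPM in control.

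TAF9B, a paralogue of TAF9 on the X chromosome, was listed at 41.0 TPM in metformin and 58.0 TPM in control, a ratio of 0.706 (0.659 to 0.756). As TAF9 had the lower ratio, TAF9B made up 29.2% of the summed level of the pair in metformin and 16.3% in control. The pair together stood at 0.395 of control.

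MED29 is a Mediator subunit found in animals that lies with MED27, MED28 and MED30 between head and tail. MED29 (NCBI gene 55588, chromosome 19 at 39881943 to 39891277 of hg19, plus strand) had 29.5 TPM in metformin and 81.6 TPM in control, 0.362 of control (0.340 to 0.384). It ranked 13 among the members in control and 48 in metformin, and 37 measured genes had a lower difference. No exon base annotated for MED29 in GENCODE is shared with another gene. PAF1, a subunit of the elongation complex of that name, starts 108 bases away in the other direction. PAF1 had 218 TPM in each library, with a ratio of 1.001 (0.966 to 1.04), so of these divergent neighbours MED29 lay past 2-fold and PAF1 did not.

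GTF2A1 encodes the precursor of the alpha and beta subunits of TFIIA, which stabilises TBP on DNA. GTF2A1 (NCBI gene 2957, chromosome 14 at 81641796 to 81687575 of hg19, minus strand) was listed at 14.6 TPM in metformin and 37.6 TPM in control, 0.390 of control (0.365 to 0.416). In 54 measured genes the difference was lower still. GTF2A2, the gamma subunit of TFIIA, had 60.0 TPM in metformin and 69.5 TPM in control, a ratio of 0.864 (0.799 to 0.933). The divergent noncoding gene GTF2A1-AS1 starts 13 bases from GTF2A1, and 160 of the 6826 exon bases of GTF2A1 also lie in it. It was at 2.11 TPM in metformin and 2.65 TPM in control, with an interval of 0.558 to 1.14 around the ratio of 0.797. GTF2A1L, the paralogue known from testis, was listed at 0 in both libraries.

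**Figure D2:**
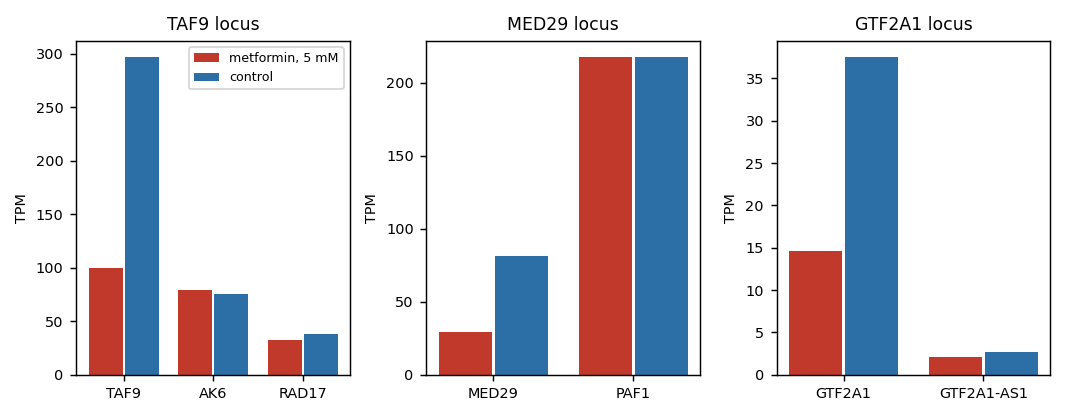
TPM (linear axes from 0) of TAF9, MED29 and GTF2A1 and of genes that share their start region, with metformin in red and control in blue, 1 library each. AK6 at 79.0 and 75.3 TPM and PAF1 at 218 TPM in each library stand beside TAF9 and MED29 bars that are lower in metformin.

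In Mediator, 31 of the 32 subunits lay within 1.5-fold of control, and the median of all 32 was -0.17. Levels ran from 7.82 to 85.4 TPM in metformin and from 9.21 to 124 TPM in control. The summed Mediator transcripts came to 1199 TPM in metformin and 1354 TPM in control, a ratio of 0.886, and to a ratio of 0.919 without MED29. The least abundant subunits were MED31, of the middle, at 7.82 TPM in metformin and 9.21 TPM in control, and MED26, a metazoan subunit that contacts elongation factors, at 8.38 and 10.2 TPM in metformin and control.

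The head, which contacts the polymerase, had a median of -0.17 over 7 subunits, with 6 below 0. By difference MED8 was its highest member, with 85.4 TPM in metformin and 65.9 TPM in control, 1.30-fold higher (1.21 to 1.38). MED17, the central subunit of the head, had its lowest difference, with 24.4 TPM in metformin and 34.2 TPM in control, a ratio of 0.712 (0.668 to 0.759). The middle had a median of -0.23 over 9 subunits, with 8 below 0. MED7 and MED21, which together form the hinge of the middle, stood at 0.713 (0.638 to 0.796) and 0.737 (0.679 to 0.799) of control. MED7 had 20.3 TPM in metformin and 28.5 TPM in control, while MED21 had 29.7 TPM in metformin and 40.3 TPM in control. MED19 had the highest difference of the middle, with 33.1 TPM in metformin and 32.4 TPM in control, with an interval that included 1. MED1, the subunit through which nuclear receptors bind, stood at 0.829 (0.792 to 0.867), and the scaffold MED14 at 0.850 (0.812 to 0.890).

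The tail, where many activators bind, had most of its subunits at or slightly above the control level. Of its 5 subunits 4 lay above 0 and all 5 above the median of all measured genes. MED16 had 36.3 TPM in metformin and 29.7 TPM in control, 1.22-fold higher (1.13 to 1.33), and had the highest difference of the tail. MED15, an activator-binding subunit, had 67.3 TPM in metformin and 56.8 TPM in control, 1.18-fold higher (1.12 to 1.25). MED23, MED24 and MED25 had ratios of 1.03, 0.969 and 1.01, each with an interval that included 1. None of the tail subunits lay past 1.5-fold, and the median of the tail was 0.04. The transcripts of the tail had a median GC content of 61.0%, that of all measured members was 45.1%, and GC content moved with the difference across genes; its part in the tail values was not tested beyond removing the trend. With the trend over GC content and length removed the tail median was 0.10, beside -0.14 for the middle and -0.18 for the head. MED27 and MED28, next to MED29, had ratios of 0.996 and 1.02, and MED30 stood at 0.844 (0.747 to 0.954).

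In the kinase module, CCNC, which encodes cyclin C, came closest to the 1.5-fold limit, with 83.7 TPM in metformin and 124 TPM in control, a ratio of 0.673 (0.639 to 0.710). On the log2(TPM + 1) scale it lay at -0.56, where 1.5-fold is 0.58. CDK8 was listed at 15.4 TPM in metformin and 19.5 TPM in control, a ratio of 0.787 (0.707 to 0.876). Its paralogue CDK19, the alternative kinase, had 25.3 TPM in metformin and 25.1 TPM in control, a ratio of 1.01 (0.950 to 1.07). CDK19 made up 62.2% of the pair in metformin and 56.2% in control. MED12, which activates the kinase, had the highest difference of the module, with 46.5 TPM in metformin and 45.3 TPM in control, a ratio of 1.03 (0.984 to 1.07). MED13 and its paralogue MED13L link the module to Mediator. MED13 had 30.5 TPM in metformin and 36.6 TPM in control, a ratio of 0.833 (0.799 to 0.868), and MED13L had 27.2 TPM in metformin and 28.7 TPM in control, a ratio of 0.950 (0.906 to 0.995).

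**Figure D3:**
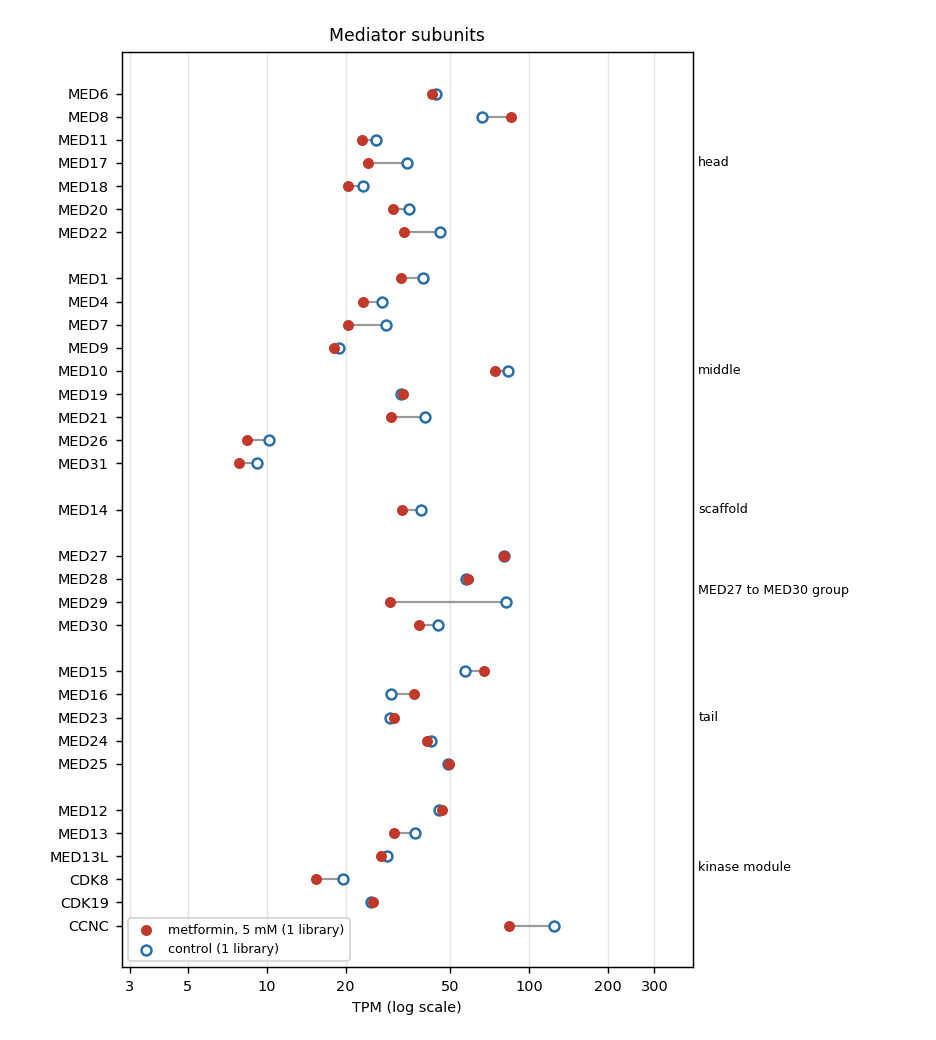
TPM of the 32 Mediator subunits on a log axis, by module, with metformin as filled red points and control as open blue circles, 1 library each. The longest line is that of MED29, with 29.5 TPM in metformin and 81.6 TPM in control, and the tail subunits MED15 and MED16 and the head subunit MED8 have their red point to the right.

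TFIID, with TBP and 13 core TAFs, had a median difference of -0.20, with 10 of the 14 below 0. Its summed transcripts came to 855 TPM in metformin and 1079 TPM in control, a ratio of 0.793, and to 756 and 781 TPM in metformin and control without TAF9, a ratio of 0.967. TBP had 53.3 TPM in metformin and 65.3 TPM in control, a ratio of 0.816 (0.758 to 0.879). TAF1, the largest subunit, which reads acetylated histones and initiator DNA, had 27.2 TPM in metformin and 32.7 TPM in control, a ratio of 0.831 (0.789 to 0.875). TAF5, a WD40 subunit, stood at 0.709 of control (0.638 to 0.789), with 14.0 TPM in metformin and 19.7 TPM in control. TAF3, which binds the promoter mark H3K4me3, had 9.22 TPM in metformin and 12.7 TPM in control, a ratio of 0.729. TAF2, TAF4, TAF8 and TAF11 had ratios between 0.826 and 0.870.

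Of all TFIID subunits TAF10, which pairs with TAF8 or TAF3, had the highest difference, with 78.8 TPM in metformin and 70.4 TPM in control, 1.12-fold (1.04 to 1.21). TAF6, the histone-fold partner of TAF9, had 152 TPM in metformin and 143 TPM in control, 1.06-fold (1.02 to 1.11). TAF7, an inhibitor of the acetyltransferase activity of TAF1, had 154 TPM in metformin and 155 TPM in control, a ratio of 0.997 (0.957 to 1.04). TAF12 and TAF13, the partners of TAF4 and TAF11, had ratios of 1.05 and 1.08 with intervals that included 1. TAF10 overlaps ILK on the other strand, which had 147 TPM in metformin and 124 TPM in control. The library kit keeps the strand, but the labels do not say if the counting took it into account, so the part of such overlaps in these values was not tested. In all, 19 of the 77 members overlap a listed gene on the other strand, and 4 overlap one on the same strand.

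Of the TAF paralogues with restricted roles, TAF4B, known from germ cells, had 13.1 TPM in metformin and 17.1 TPM in control, a ratio of 0.770 (0.702 to 0.844). Its parent TAF4 had 14.7 TPM in metformin and 17.8 TPM in control, a ratio of 0.826 (0.756 to 0.904), so the TAF4B share of the pair was 47.2% in metformin and 49.0% in control. TAF7L and TAF1L, known from testis, were not measured: TAF7L was listed at 0.515 TPM in metformin and 0.171 TPM in control, and TAF1L at 0.00925 TPM in metformin and 0 in control. TAF5L and TAF6L, which take the places of TAF5 and TAF6 in SAGA, had ratios of 0.823 (0.741 to 0.915) and 0.875 (0.755 to 1.01). TAF5L had 15.7 TPM in metformin and 19.1 TPM in control, and TAF6L had 13.2 TPM in metformin and 15.1 TPM in control. TAF15, an RNA-binding protein of the FET family, was listed at 147 TPM in each library, with a ratio of 1.0 (0.958 to 1.04).

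TAF1A, TAF1B, TAF1C and TAF1D carry TAF names but belong to SL1, the selectivity factor of RNA polymerase I. All 4 lay below 0 within a narrow range, from -0.18 to -0.12. The lowest difference was that of TAF1C, with 29.6 TPM in metformin and 33.6 TPM in control, a ratio of 0.880 (0.820 to 0.945). The highest was that of TAF1A, with 10.3 TPM in metformin and 11.3 TPM in control, a ratio of 0.913 (0.767 to 1.09). Their median turned to 0.04 with the trend over GC content and length removed.

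None of the genes of TFIIB, TFIIE and TFIIF lay past 1.5-fold. GTF2B, which places the polymerase at the start site, had 44.3 TPM in metformin and 43.5 TPM in control, a ratio of 1.02 (0.928 to 1.12). GTF2E1 and GTF2E2, the subunits of TFIIE, which recruits TFIIH, had ratios of 0.924 (0.830 to 1.03) and 1.08 (1.01 to 1.16). GTF2F1 and GTF2F2, the subunits of TFIIF, which accompanies the polymerase, had ratios of 1.12 (1.07 to 1.17) and 0.891 (0.834 to 0.951). GTF2F1, the highest of these factors, was at 147 TPM in metformin and 131 TPM in control. With TFIIA, the 7 measured genes of these factors had a median of -0.11, which turned to 0.03 with the trend over GC content and length removed.

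In TFIIH, CDK7, the kinase of the polymerase tail and of cell cycle CDKs, had the highest difference of all members. CDK7 (chromosome 5 at 68530622 to 68573257 of hg19) was listed at 171 TPM in metformin and 130 TPM in control, 1.32-fold higher (1.25 to 1.39), and was the most abundant member in metformin. Its cyclin CCNH had 88.0 TPM in metformin and 118 TPM in control, a ratio of 0.747 (0.698 to 0.800). MNAT1, which assembles the pair, had 74.1 TPM in metformin and 78.7 TPM in control, a ratio of 0.941 (0.891 to 0.994). The 3 subunits of the kinase module thus had ratios on both sides of 1, none past 1.5-fold, and their summed level was 333 TPM in metformin and 326 TPM in control.

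The 9 genes listed for the core of TFIIH had a median of -0.20, with 7 below 0 and none past 1.5-fold. That median rested on the 3 near-identical genes GTF2H2, GTF2H2C and GTF2H2C_2: it was -0.007 without them, and -0.06 with the trend over GC content and length removed. The helicase genes ERCC2 and ERCC3, also needed for nucleotide excision repair, had ratios of 1.03 (0.989 to 1.07) and 0.994 (0.946 to 1.04). GTF2H1 had the lowest difference of the core on the log2(TPM + 1) scale, with 27.9 TPM in metformin and 34.1 TPM in control, a ratio of 0.818 (0.755 to 0.887). GTF2H3 had the highest difference, with 39.7 TPM in metformin and 38.3 TPM in control, a ratio of 1.04 (0.968 to 1.11). GTF2H5, the small subunit TTDA, had 12.6 TPM in metformin and 12.7 TPM in control. Reads can be split between the GTF2H2 copies, so their single values are uncertain. GTF2H2C and GTF2H2C_2 overlap on the same strand of chromosome 5 in hg19, with starts 23 bases apart. Their 2 values can thus be the split reads of 1 locus, which summed to 41.0 TPM in metformin and 49.9 TPM in control, a ratio of 0.822. GTF2H2 was listed at 27.8 TPM in metformin and 32.1 TPM in control, a ratio of 0.863 (0.775 to 0.962). GTF2H2C was listed at 3.33 TPM in metformin and 4.21 TPM in control, a ratio of 0.790 (0.653 to 0.957). GTF2H2C_2 had 37.7 TPM in metformin and 45.7 TPM in control. Together with the pseudogene GTF2H2B the copies summed to 79.9 TPM in metformin and 95.9 TPM in control, a ratio of 0.833.

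**Figure D4:**
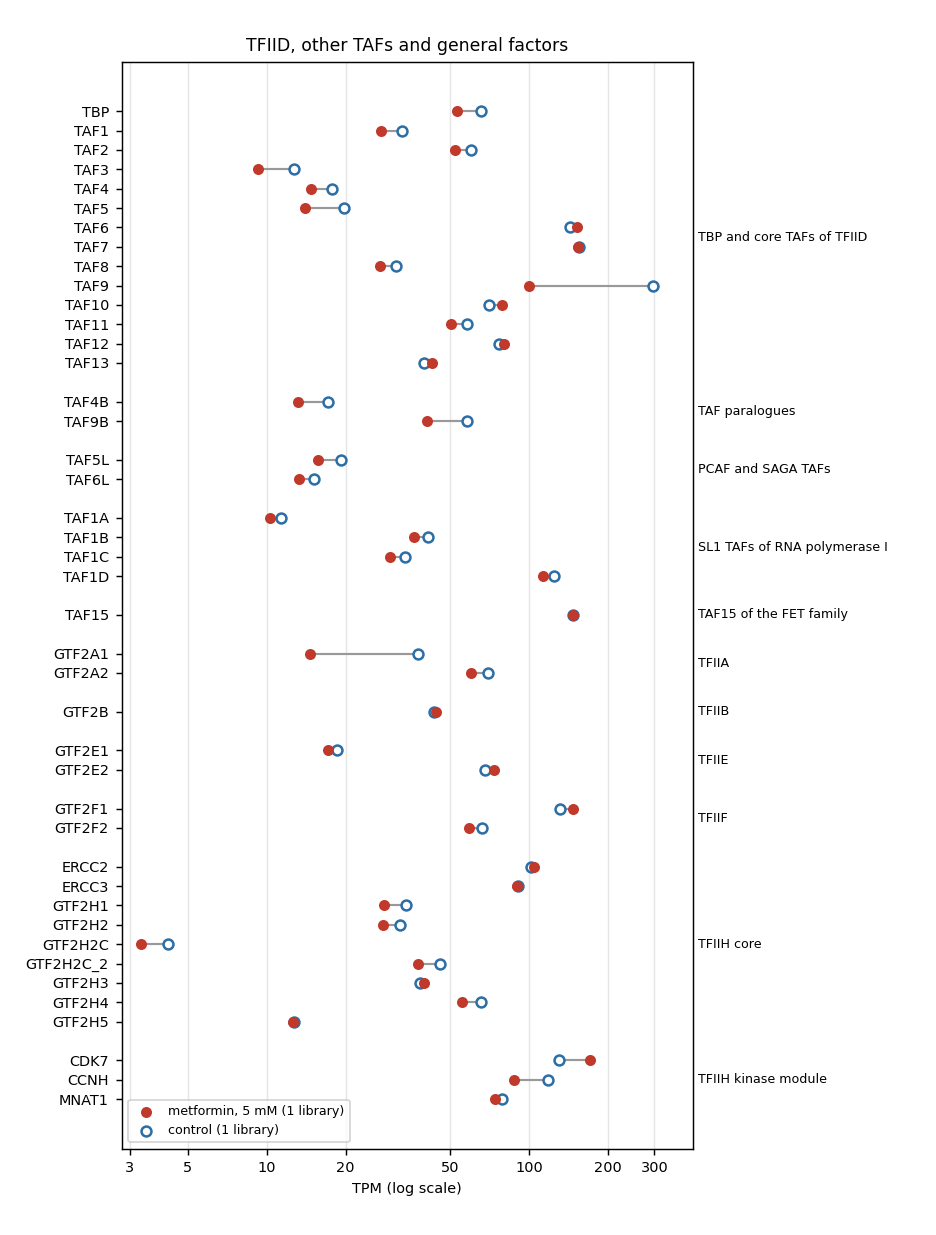
TPM of the 42 measured members outside Mediator on a log axis, by complex, with metformin as filled red points and control as open blue circles, 1 library each. The longest lines are those of TAF9 and GTF2A1, and CDK7 and CCNH of the TFIIH kinase module have their points in opposite order.

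Over the 73 measured members with a known transcript, the difference had a Spearman correlation of 0.27 with GC content, and 0.35 over 13303 measured genes. These are correlations across genes of the same 2 libraries, given as a description. GTF2A1 had a GC content of 35.7%, TAF9 of 41.3% and MED29 of 53.8%. The part of GC content in their values was not tested beyond removing the trend. With the trend over GC content and length removed, the same 3 members lay past 2-fold.

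**Figure D5:**
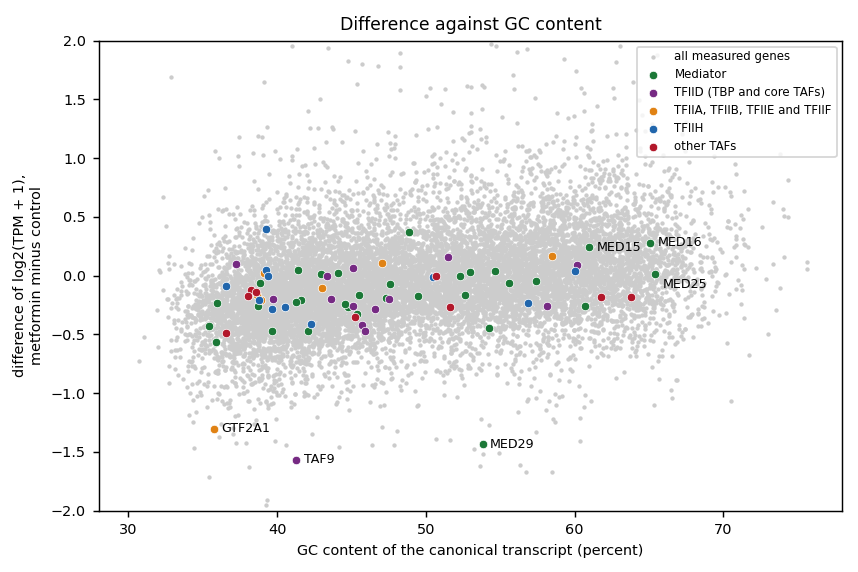
Metformin value less control value on the log2(TPM + 1) scale against the GC content of the canonical transcript in percent, with measured genes in grey and members coloured by complex. Of 13303 genes 18 lie outside the axes, and TAF9, MED29 and GTF2A1 lie below the bulk of genes of their own GC content.

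Outside the members, 42 genes of RNA polymerase II, of TBP regulation, of pausing and elongation, and of TAF partner complexes were listed. Of these 42, 1 was higher and 0 were lower by 2-fold or more, beside 1.51% and 1.24% of all measured genes. The 13 genes listed under RNA polymerase II had a median of -0.18, with 11 below 0. They ran from POLR2K, a small shared subunit, at 146 TPM in metformin and 189 TPM in control, a ratio of 0.775 (0.729 to 0.825), to POLR2I at 195 TPM in metformin and 158 TPM in control, 1.24-fold (1.13 to 1.35). The 4 genes that act on TBP or resemble it had a median of -0.31. By difference their lowest was TBPL1, a paralogue of TBP, at 43.5 TPM in metformin and 61.8 TPM in control, a ratio of 0.703 (0.667 to 0.741). Their highest was DRAP1, a subunit of the repressor NC2, at 1137 TPM in metformin and 1084 TPM in control. In the list of pausing and elongation factors the median was -0.06, with SUPT4H1, a subunit of DSIF, at 0.868 (0.818 to 0.921) and CDK9, the kinase of P-TEFb, at 1.27-fold (1.19 to 1.34). The 15 partners of the TAFs in SAGA and ATAC had a median of -0.06. SUPT3H, a histone-fold subunit of SAGA, was the gene past 2-fold, at 34.6 TPM in metformin and 16.6 TPM in control, 2.09-fold higher (1.93 to 2.27). It overlaps RUNX2 on the other strand, which had 9.65 TPM in metformin and 10.1 TPM in control. The lowest difference of that list was that of TADA2A, an adaptor subunit, with 15.9 TPM in metformin and 22.5 TPM in control, a ratio of 0.710 (0.650 to 0.774).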

How the data were processed

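RNA of 1 metformin and 1 control culture was sequenced, and 1 gene table per library was used. Per the labels' protocols, Bowtie2 was the aligner and hg19 the genome. Per the submitters' processing notes, the tools included Trimmomatic 0.38 and HISAT2, with builds hg19 and GRCh37. Which program gave the abundances is not stated there. TPM was computed by the authors and sums to 1000000 per library. FPKM was deposited beside it. Coverage was deposited as mean read depth of a gene. The largest quotient of coverage and FPKM over genes gave the depth. For some members the quotient was lower, as for GTF2E2 at 0.07, MED15 at 0.10, TAF1 at 0.17 and MED27 at 0.26 of the largest in metformin.

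Gene IDs were matched to RefSeq symbols (27559 of 27685), and rows of 1 ID were summed. Pairs of 202 bases were inferred for each gene by multiplying FPKM by its canonical GENCODE 44 length, at most the span of the row. Their total was 106% of the depth in metformin and 107% in control. From them came Clopper-Pearson intervals at 95%, which cover counting error only. Where the quotient of coverage and FPKM was low, the inferred pairs may be too many and the interval too narrow, which was not tested. The smallest measured member rested on about 175 pairs in metformin and 183 in control. The TPM pseudocount was 1, the minimum 1 TPM. The difference, the fold calls and the interval formula were tested on simulated counts with Python 3.11.15. The inference of pairs from FPKM and length was not part of that test.

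Members and lists were chosen with earlier results of these data known. Named in full were members past 1.5-fold, the highest and lowest of each module with 3 or more measured genes, paralogue pairs and overlapping genes; some further members were named after their values were seen.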

Additional observations from a re-analysis of the deposited data

How the results depend on the processing

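The counts of members past 2-fold and past 1.5-fold were recomputed under 12 alternatives, of which the plain TPM ratio was added after the data were seen. They were 3 lower and 0 higher under 11 of them, and the lower members were TAF9, MED29 and GTF2A1 each time. Leaving out members that overlap a gene on the same strand or have a copy gave 2 lower, because TAF9 was left out. The ratio of TAF9 ran from 0.335 to 0.479, that of MED29 from 0.361 to 0.384 and that of GTF2A1 from 0.390 to 0.414 over FPKM, coverage, centring and summed loci. The median of all members ran from -0.18 to -0.09 over the alternatives. For SL1 the median was -0.12 with FPKM, -0.069 after centring, -0.082 with trimmed mean scaling and 0.045 with the trend over GC content and length removed. For the TAFs outside core TFIID it was -0.090 after centring, -0.10 with trimmed mean scaling and -0.25 with the same trend removed. The median of the TFIIH kinase module, -0.09, turned to 0.002 after centring and 0.15 with that trend removed. The cause was not tested. For the TFIIH core the median, -0.20, was -0.107 at a minimum of 5 TPM, which left out GTF2H2C, and -0.007 without overlapping or copied members, which left out the 3 GTF2H2 genes. No paired analysis was possible because each condition had 1 library, so variation between cultures is not covered by any value here.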

Other observations

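Ratios between transcripts of subunits that bind each other, a list of pairs chosen after the values were seen, are given as values per length. TAF9 over TAF6 was 0.657 in metformin and 2.08 in control. GTF2A1 over GTF2A2, the subunits of TFIIA, was 0.244 in metformin and 0.540 in control, and MED29 over MED27 was 0.369 in metformin and 1.02 in control. CDK7 over CCNH was 1.95 in metformin and 1.10 in control. The ratio of the hinge subunits MED7 over MED21 was close in both libraries, 0.685 in metformin and 0.708 in control, and that of CDK8 over CCNC was 0.184 in metformin and 0.157 in control. TAF12 over TAF4 was 5.46 in metformin and 4.31 in control, and TAF13 over TAF11 was 0.844 in metformin and 0.682 in control. These levels of RNA do not give the amounts of the proteins.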
